A study of Mus musculus with 29 samples.

Results

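The Hes and Hey genes encode transcriptional repressors of the basic helix-loop-helix class. Binding of the transcription factors Atoh1, Pou4f3 and Gfi1 around 9 of them (Hes1, Hes2, Hes3, Hes5, Hes6, Hes7, Hey1, Hey2 and Heyl) was described from ChIP-seq peak lists. The members were chosen by name, and a summit, the position of highest enrichment in a peak, was counted for a member when it lay in the gene body or within 50 kb of it in the mm9 mouse genome. The 9 genes were among 37273 annotated genes, and their windows covered 0.951 Mb. In all, 227 summits that the authors kept, out of 251 called peaks there, fell in these windows, and none was counted for more than 1 member.

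The cells were mouse embryonic stem cells of the A2loxCre parental line with doxycycline-inducible transgenes, grown as embryoid bodies to day 6 with 2 µg/ml doxycycline for the last 48 h. The 6 lines carried Atoh1 (iAtoh1), Pou4f3 (iPou4f3), Gfi1 and Atoh1 (iG+A), Gfi1 and Pou4f3 (iG+P), Pou4f3 and Atoh1 (iP+A), or all 3 factors (iGPA), and every cassette also carried the fluorescent reporter Venus. Atoh1 was precipitated through a FLAG tag in iAtoh1, iG+A, iP+A and iGPA, Pou4f3 through a MYC tag in iGPA, iP+A, iG+P and iPou4f3, and Gfi1 with an antibody to Gfi1 in iGPA. Each of the 8 Atoh1 and Pou4f3 lists came from 2 merged libraries and the Gfi1 list from 1, so that no value below has a replicate spread and no test was made. Libraries without induction were not analysed here. The tagged factors were driven from an introduced cassette, so the lists describe transgenic and not endogenous protein for Atoh1 and Pou4f3. The lists record binding only: they hold no expression values, and a gene without a kept summit is not shown to be unbound.

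Most Hes and Hey genes are switched on by Notch signalling. The cleaved Notch receptor joins the DNA-binding protein Rbpj at their promoters, and the repressors made then hold back proneural genes, Atoh1 among them. In the inner ear this circuit keeps supporting cells from becoming hair cells, while hair cells express Atoh1, Pou4f3 and Gfi1 and present Notch ligands to their neighbours. Hes6 stands apart, since it opposes Hes1 and promotes neuronal differentiation.

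Every member had a summit in at least 5 of the 9 lists, a rule for which the share of all genes was not counted. Hes1, Hes6 and Hes7 had a summit in all 9. These 3 of 9 members stand beside 9.14% of all annotated genes. In the Atoh1 lists, 8 members in iAtoh1, 9 for iG+A, 8 for iP+A and 9 for iGPA had a summit, beside 46.6%, 58%, 55.4% and 64.4% of all genes. Hes2 lacked one in iAtoh1 and Hes5 lacked one in iP+A. In the Pou4f3 lists, 7 members in iPou4f3, 9 for iG+P, 9 for iP+A and 8 for iGPA had a summit, beside 65.7%, 70.9%, 53.4% and 57.5% of all genes. Hes5 was without a Pou4f3 summit in iPou4f3 and in iGPA, and Hey1 in iPou4f3. Gfi1 summits lay near 3 members, beside 20.1% of all genes. All 9 members are protein-coding genes, and among protein-coding genes the shares ran from 23.2% for Gfi1 to 76.6% for Pou4f3 in iG+P.

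**Figure D1:**
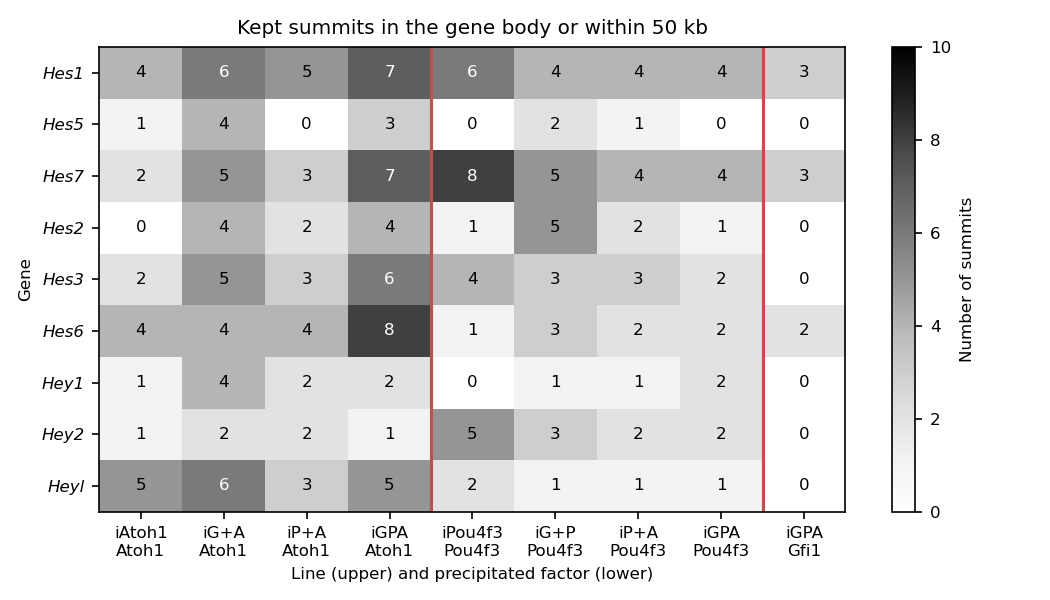
Number of kept summits in the body of each gene (rows) or within 50 kb of it, in each of the 9 lists (columns, line above and precipitated factor below, with Atoh1, Pou4f3 and Gfi1 lists parted by vertical lines). Hes6 reached 8 Atoh1 summits in iGPA and Hes7 reached 8 Pou4f3 summits in iPou4f3, while Gfi1 summits lay near Hes1, Hes7 and Hes6.

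Atoh1 summits near members numbered 20 in iAtoh1, 40 for iG+A, 24 for iP+A and 43 for iGPA. The lists themselves differed in length, with 15568, 20504, 18949 and 26231 kept summits. Per 10000 summits of a list, 12.9 lay near members in iAtoh1, 19.5 for iG+A, 12.7 for iP+A and 16.4 for iGPA. Within 50 kb, the lists of both lines that carried Gfi1 beside Atoh1 therefore held more summits than those without it, in count and in share. The share depended on the rule. Within 10 kb the Atoh1 counts were 17, 25, 16 and 20 in the same order of lines, and by nearest start 16, 22, 14 and 19. By either of these rules the count relative to list length was lowest in iGPA. Pou4f3 summits near members numbered 27 in iPou4f3, 27 for iG+P, 20 for iP+A and 18 for iGPA, or 12.0, 8.27, 11.7 and 9.60 per 10000, so that the share was lower in the lines with Gfi1. The Gfi1 list held 8 summits near members among 3012. List length bore on these counts. With each Atoh1 list reduced to its 15568 strongest summits by −log10 p, 20 lay near members in iAtoh1, 32 for iG+A, 21 for iP+A and 24 for iGPA, and with each Pou4f3 list reduced to 17082 the counts were 18, 14, 20 and 14.

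Per unit of sequence, summits were denser around the members than around protein-coding genes as a whole in each of the 9 lists. The density of Atoh1 summits in the member windows was 21.0 per Mb in iAtoh1, 42.1 for iG+A, 25.2 for iP+A and 45.2 for iGPA, against 7.88, 10.7, 9.57 and 13.7 per Mb in the joined windows of 22367 protein-coding genes. The ratio ran from 1.80 for Pou4f3 in iG+P to 5.31 for Gfi1, and for Atoh1 was 2.67, 3.94, 2.64 and 3.30 in the same order of lines. The windows also hold other genes. Of 95 sites near members, made by joining, in a chain, summits of all lists under 300 bp apart, the nearest annotated transcription start belonged to a member for 39, and the part of neighbouring genes in these densities was not tested.

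**Figure D2:**
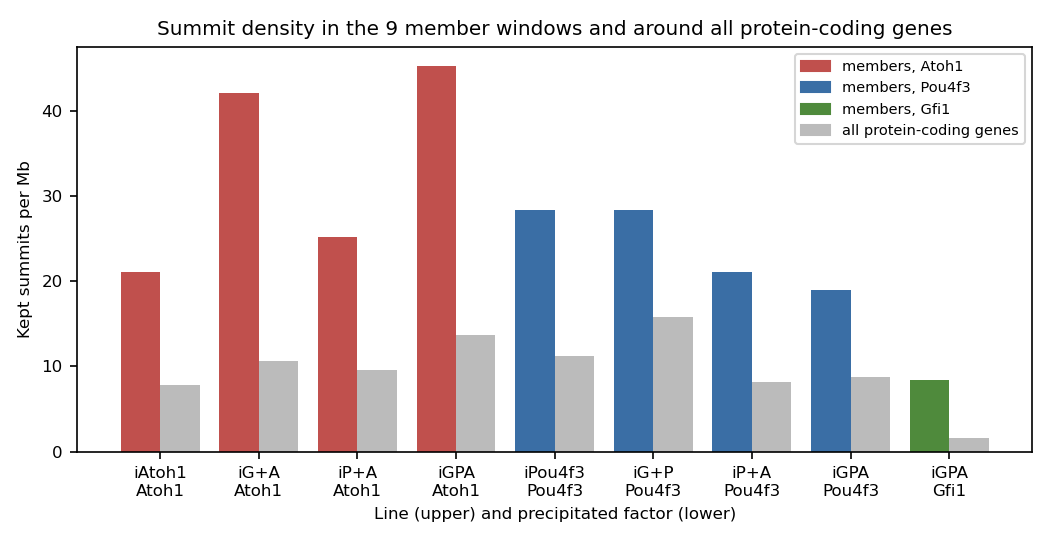
Kept summits per Mb in the windows of the 9 members (coloured bars) and in the joined windows of all protein-coding genes (grey bars), for each list. The coloured bar is the higher of the pair in all 9 lists, from a ratio of 1.80 for Pou4f3 in iG+P to 5.31 for Gfi1 in iGPA.

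Some members had summits within 1 kb of the annotated start of one of their transcripts, which for Heyl and Hes3 was a start inside the gene. Atoh1 lay there at 4 members in iAtoh1 (Hes1, Hes6, Hey1 and Heyl), beside 10.3% of all genes. It lay at 5 in iG+A and at 5 in iP+A (the same 4 and Hey2 in both), beside 16.7% and 14.8%, and at 6 in iGPA (Hes1, Hes3, Hes5, Hes6, Hey1 and Heyl), beside 20.7%. The Hes3 site was kept in all 4 Atoh1 lists and lay across the 1 kb limit. Its highest summit, in iG+A, was 1029 bp from that start. Pou4f3 lay at 2 members in iPou4f3 (Hes1 and Hey2), 2 in iG+P (Hes1 and Hes6), 0 in iP+A and 2 in iGPA (Hes1 and Hes6), beside 21.4%, 17.8%, 12.2% and 9.45% of all genes. Gfi1 lay at 2 members, Hes1 and Hes6, beside 4.39%. Hes2 and Hes7 had no summit within 1 kb of a start in any list.

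Hes6, the atypical member (chr1:93308060-93310615, minus strand), carried the strongest Atoh1 site of the family. Its 4 Atoh1 summits lay 222, 212, 258 and 195 bp upstream of the gene start in iAtoh1, iG+A, iP+A and iGPA, in a site spanning chr1:93310660-93311133 outside any annotated transcript. Fold enrichment, the ratio of ChIP fragments to local background at the summit, was 15.3 in iAtoh1, 25.4 for iG+A, 20.7 for iP+A and 28.8 for iGPA. It ranked 35th, 16th, 18th and 43rd of the kept summits in those lists, and it was the highest Atoh1 fold near any member in all 4. Fold values are not scaled between lists, so the rank within a list is the safer reading. The same site held a Gfi1 summit of 5.28-fold in iGPA and a Pou4f3 summit of 2.63-fold in iG+P. The bases around its highest summit, from the mm9 genome on the strand of the gene (chr1:93310685-93310934), are shown because no other member site ranked as high, with capitals marking an E-box core searched here, CAGATG or CAGCTG on either strand.
Hes6 promoter: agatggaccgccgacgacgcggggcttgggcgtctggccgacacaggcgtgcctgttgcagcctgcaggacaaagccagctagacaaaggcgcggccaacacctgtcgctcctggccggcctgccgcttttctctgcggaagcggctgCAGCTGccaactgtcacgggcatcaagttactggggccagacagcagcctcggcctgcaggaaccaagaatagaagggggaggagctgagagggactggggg

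A second Atoh1 site lay 670 bp inside Hes6, in an intron (chr1:93309794-93310104). Atoh1 had a summit there in all 4 lists, at 5.13-fold in iAtoh1, 6.41 for iG+A, 6.67 for iP+A and 10.3 for iGPA. A further site, 6.01 kb downstream of the start, was held by iAtoh1 at 3.42-fold, iG+A at 4.41 and iGPA at 7.63, and not by iP+A. Hes6 also had a site present in 7 lists, 15.5 kb from its start and inside an intron of the neighbouring gene Ilkap (chr1:93294893-93295746). All 4 Pou4f3 lists held it, at 8.70-fold in iPou4f3, 5.14 for iG+P, 4.02 for iP+A and 4.81 for iGPA, and the first was the highest Pou4f3 fold near a member in iPou4f3. Gfi1 was there at 4.18-fold, and Atoh1 at 2.54-fold in iG+A and with 2 summits of 4.68- and 3.20-fold in iGPA. The nearest start to this site was that of Ilkap, at 219 bp. Its bases outside annotated untranslated exons (chr1:93295016-93295227, minus strand), shown as a site of 7 lists, held none of the strings searched, while the full 250 bp window held 1 E-box core outside the stretch printed.
Hes6 downstream site: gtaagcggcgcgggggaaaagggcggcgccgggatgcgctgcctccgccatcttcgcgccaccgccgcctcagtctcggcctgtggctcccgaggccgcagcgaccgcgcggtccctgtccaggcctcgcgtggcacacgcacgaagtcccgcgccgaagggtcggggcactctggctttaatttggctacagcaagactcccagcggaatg

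Hes1, the main Notch effector of many progenitors (chr16:30064470-30067882, plus strand), had 13 sites in its window, and its counts were 4, 6, 5 and 7 summits in the Atoh1 lists of iAtoh1, iG+A, iP+A and iGPA, 6, 4, 4 and 4 in the Pou4f3 lists, from iPou4f3 and iG+P to iP+A and iGPA, and 3 for Gfi1. Atoh1 lay 213 bp upstream of the start in all 4 lists, at 7.45-fold in iAtoh1, 8.41 for iG+A, 4.11 for iP+A and 9.23 for iGPA. These values placed it in the top 2.35%, 2.41%, 19.2% and 4.72% of the respective lists, so that iP+A was the list in which it stood lowest. Pou4f3 summits at the same site were weak, at 2.74-fold in iG+P and 2.50 in iGPA. The site is shown (chr16:30064132-30064381, plus strand) because it lies at the promoter of the member most often placed downstream of Notch, with the E-box core in capitals.
Hes1 promoter: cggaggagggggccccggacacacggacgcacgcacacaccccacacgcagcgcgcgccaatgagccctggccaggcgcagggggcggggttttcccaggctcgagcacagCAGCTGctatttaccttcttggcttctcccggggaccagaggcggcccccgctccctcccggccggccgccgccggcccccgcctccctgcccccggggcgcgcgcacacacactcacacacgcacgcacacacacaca

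Gfi1, a zinc finger repressor, had its strongest Hes1 summit 4.21 kb downstream of the start, at 8.49-fold. Atoh1 was at that site in iG+A at 5.34-fold and in iP+A at 2.58, and no kept Atoh1 summit lay there in iAtoh1 or iGPA. Pou4f3 had a pair of sites of its own upstream of Hes1. At 36.6 kb upstream it was present in all 4 Pou4f3 lists, at 4.64-fold in iPou4f3, 5.58 for iG+P, 2.49 for iP+A and 5.68 for iGPA, with no Atoh1 summit. At 36.0 kb upstream it was again present in all 4, at 3.68, 3.94, 4.30 and 4.22-fold, with Atoh1 at 2.58 in iGPA.

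Hes5, the other effector of Notch in neural progenitors and supporting cells (chr4:154335032-154336480, plus strand), was covered mainly by Atoh1. It had 1 Atoh1 summit in iAtoh1, 4 for iG+A, 0 for iP+A and 3 for iGPA. Pou4f3 gave 0 in iPou4f3, 2 for iG+P, 1 for iP+A and 0 for iGPA, and Gfi1 gave 0. Its strongest site, 2.44 kb upstream, held Atoh1 at 3.42-fold in iAtoh1, 7.08 in iG+A and 5.17 in iGPA. Neither a kept nor a left-out peak lay there in iP+A. Close to the start, 122 bp upstream, a single Atoh1 summit of 3.45-fold was kept in iGPA alone among the 9 lists. The upstream site (chr4:154332467-154332716, plus strand) is shown because it held 2 copies of the Rbpj string GTGGGAA beside an E-box core. Capitals mark both kinds of string, here on either strand.
Hes5 upstream site: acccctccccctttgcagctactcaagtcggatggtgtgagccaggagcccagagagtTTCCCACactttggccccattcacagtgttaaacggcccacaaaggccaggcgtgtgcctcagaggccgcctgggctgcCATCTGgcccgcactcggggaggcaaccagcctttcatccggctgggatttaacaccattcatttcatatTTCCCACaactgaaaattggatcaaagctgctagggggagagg

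Hes7, the oscillating repressor of the somite clock (chr11:68933906-68937557, plus strand), had 2, 5, 3 and 7 Atoh1 summits in iAtoh1, iG+A, iP+A and iGPA, 8, 5, 4 and 4 Pou4f3 summits in iPou4f3 and iG+P, then iP+A and iGPA, and 3 for Gfi1. Of its 16 sites, the nearest start was its own for 1. In a coding exon of the gene, 2.15 kb from the start, Atoh1 was kept in all 4 lists at 3.54-, 3.47-, 3.66- and 4.80-fold, and Pou4f3 in iPou4f3 at 2.90 and in iP+A at 2.60. This site was 34 bp from the start of another gene, 9130213A22Rik. The highest Atoh1 and Pou4f3 folds of the window lay far upstream, at 47.6 kb, in a coding exon of Tmem107 (chr11:68886105-68886459). Pou4f3 was there in all 4 lists, at 3.91-fold in iPou4f3, 6.13 for iG+P, 4.98 for iP+A and 8.88 for iGPA, the last 3 being the highest Pou4f3 folds near a member in those lists. Atoh1 was there in the lines that also carried Pou4f3, at 6.13-fold in iP+A and 9.23 in iGPA, and had neither a kept nor a left-out peak there in iAtoh1 or iG+A. Next to it, 46.9 kb upstream and 117 bp from the start of Snord118, lay the highest Gfi1 fold near a member, 9.24.

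Hey1, a Notch target expressed in the prosensory region of the ear (chr3:8663362-8667039, minus strand), had few summits, with 1, 4, 2 and 2 for Atoh1 and 0, 1, 1 and 2 for Pou4f3 in the same orders of lines, and 0 for Gfi1. Near its start, Atoh1 was kept at 2.81-fold in iAtoh1, 255 bp upstream, at 3.34 in iG+A, 522 bp upstream, and at 3.94 in iGPA, 437 bp upstream. Other sites are placed by their highest summit. A site 39.4 kb upstream (chr3:8706285-8706645, intergenic) held both factors in both lines that carry both. Atoh1 was at 6.56-fold in iP+A and 11.7 in iGPA, and Pou4f3 at 4.30 and 7.86. No peak of either factor, kept or left out, lay there in iAtoh1, iG+A, iPou4f3 or iG+P. The nearest annotated start, of the small RNA SNORA17, was 26962 bp away. The bases are shown for that pattern of lists (chr3:8706314-8706563, minus strand), with 2 E-box cores in capitals and no match to the Pou4f string.
Hey1 upstream site: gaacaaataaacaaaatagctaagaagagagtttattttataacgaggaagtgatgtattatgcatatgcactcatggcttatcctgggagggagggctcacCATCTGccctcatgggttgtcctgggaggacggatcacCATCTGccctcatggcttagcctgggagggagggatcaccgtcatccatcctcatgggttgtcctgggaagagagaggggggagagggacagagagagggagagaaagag

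Another Hey1 site, 41.8 kb downstream of the start, held Pou4f3 in the lines with Gfi1, at 4.49-fold in iG+P and 7.14 in iGPA, and no Atoh1 summit.

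Hey2, which helps to maintain pillar cells of the cochlea (chr10:30552165-30562607, minus strand), was the member with more Pou4f3 than Atoh1 summits by the widest margin, 12 against 6 over the 4 lists of each. Its counts were 1, 2, 2 and 1 for Atoh1, 5, 3, 2 and 2 for Pou4f3 and 0 for Gfi1. The nearest start was that of Hey2 for 6 of its 10 sites. The rest, all with Pou4f3 summits, lay nearest to the start of the neighbouring gene Ncoa7. Atoh1 was kept 1.10 kb upstream at 2.57-fold in iAtoh1, 3.20 in iG+A and 3.01 in iP+A. Pou4f3 was kept 5.74 kb upstream at 2.85-fold in iPou4f3, 3.51 in iP+A and 3.35 in iGPA. No Hey2 site was held by 4 lists or more.

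Heyl, a Notch target related to Hey1 and Hey2 (chr4:122910799-122927118, plus strand), showed the reverse balance, with 5, 6, 3 and 5 Atoh1 summits, 2, 1, 1 and 1 Pou4f3 summits and 0 for Gfi1. Atoh1 was kept in all 4 lists at 3 of its sites. The strongest lay 5.12 kb upstream (chr4:122905507-122905840, intergenic), at 11.6-fold in iAtoh1, 10.3 for iG+A, 8.28 for iP+A and 9.97 for iGPA. It ranked 78th in iAtoh1, and stood in the top 3.79% in iGPA. The others lay 7.31 kb upstream, at 4.40-, 2.94-, 3.44- and 2.95-fold, and in a coding exon 6.61 kb from the start, at 4.03-, 4.41-, 2.90- and 4.55-fold. Pou4f3 was kept in all 4 of its lists 58.1 kb from the start, beyond the end of the gene in an intron of Pabpc4, at 6.54-, 5.47-, 4.30- and 5.53-fold. The upstream Atoh1 site (chr4:122905550-122905799, plus strand) is shown for its 4 E-box cores, in capitals.
Heyl upstream site: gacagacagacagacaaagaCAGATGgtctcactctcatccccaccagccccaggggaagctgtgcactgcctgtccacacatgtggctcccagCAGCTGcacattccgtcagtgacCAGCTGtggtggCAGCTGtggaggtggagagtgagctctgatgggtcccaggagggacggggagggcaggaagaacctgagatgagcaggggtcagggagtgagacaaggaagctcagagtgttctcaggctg

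Hes2 and Hes3 lie close to each other on chromosome 4 and have less settled roles. Hes2 (chr4:151532976-151536578, plus strand) had 0, 4, 2 and 4 Atoh1 summits, 1, 5, 2 and 1 Pou4f3 summits and 0 for Gfi1, and the nearest start was its own for 1 of its 10 sites. Several lay in Espn, a gene for an actin bundler of hair cell stereocilia. The Hes2 site of most lists, 19.4 kb from the start in a coding exon of Acot7, held Atoh1 at 2.94-fold for iG+A, 4.09 for iP+A and 6.15 for iGPA, and Pou4f3 at 2.60 in iP+A. The nearest start to this site was that of Acot7, at 140 bp. Hes3 (chr4:151660081-151665771, minus strand) had 2, 5, 3 and 6 Atoh1 summits, 4, 3, 3 and 2 Pou4f3 summits and 0 for Gfi1. Its coding exon 4.63 kb from the start held Atoh1 in all 4 lists at 2.81-, 4.01-, 2.58- and 3.08-fold. Its site of most lists lay 5.69 kb upstream, 48 bp from the start of Icmt, and held Atoh1 at 3.20 in iG+A and 2.90 in iP+A, and Pou4f3 at 3.06 in iPou4f3, 3.62 in iP+A and 3.50 in iGPA.

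**Figure D3:**
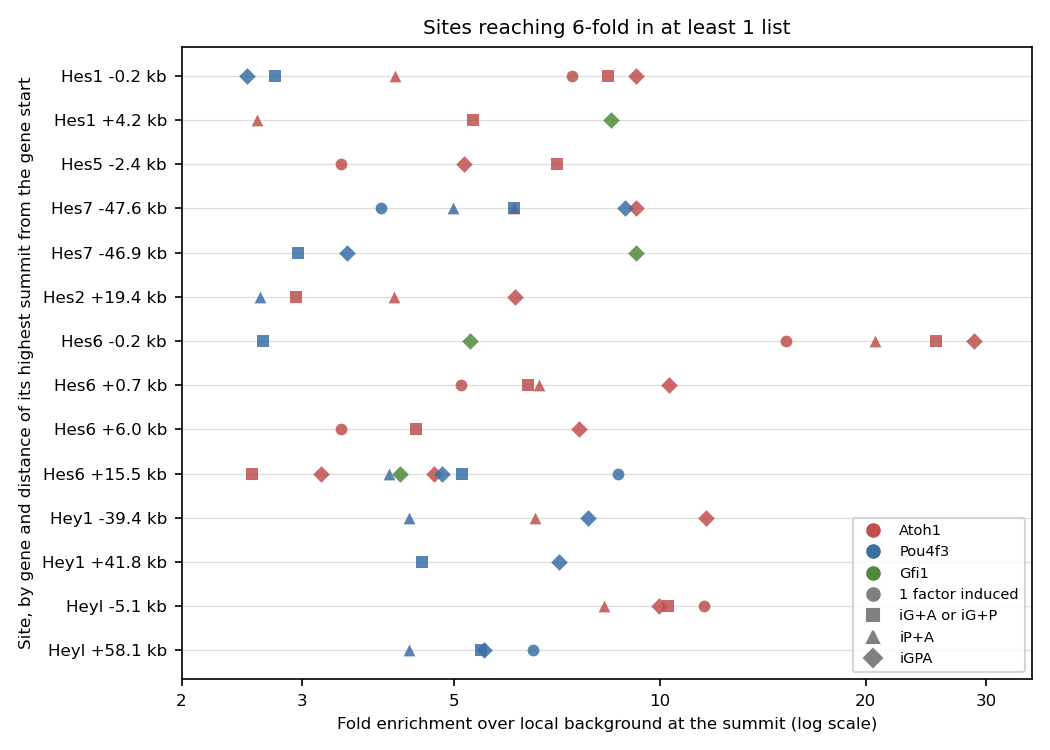
Fold enrichment over local background (log axis) at each site near a member that reached 6-fold in at least 1 list, with colour for the precipitated factor and shape for the line. The Hes6 promoter stands furthest right with its 4 Atoh1 values, and the sites upstream of Hey1 (39.4 kb) and Hes7 (47.6 kb) have Atoh1 points from iP+A and iGPA only.

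A site kept in all 4 Atoh1 lists was present near 5 members (Hes1, Hes3, Hes6, Hes7 and Heyl), beside 27.2% of all genes. One kept in all 4 Pou4f3 lists was present near 4 (Hes1, Hes6, Hes7 and Heyl), beside 32.2%. One that held both Atoh1 and Pou4f3 in iGPA was present near 4 (Hes1, Hes6, Hes7 and Hey1), beside 21.6%. Of the 95 sites, 41 held Atoh1 alone, 28 Pou4f3 alone and 18 both, and 8 held Gfi1 with or without another factor. Each of these 8 also held Atoh1 or Pou4f3 in at least 1 list of some line, a share not counted for the whole genome. In the whole genome the shares were 37.5% for Atoh1 alone and 41.8% for Pou4f3 alone, against 43.2% and 29.5% near members, and 16.9% for both and 3.81% with Gfi1, against 18.9% and 8.42%. Sites seen in 1 list made up 40% near members and 46.9% in the genome.

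Summits near members were then matched between lists that differed by 1 added factor, a match being a summit under 300 bp away. Intervals are exact Clopper-Pearson 95% limits and cover counting error only. They treat summits as independent, although several lay near the same gene in a merged list. They are therefore no test against the share of the whole list. Of the 20 iAtoh1 summits, 16 had a partner in iG+A (80.0%, 56.3 to 94.3), beside 52.2% of the whole iAtoh1 list. With Pou4f3 added in place of Gfi1, 11 of the 20 had a partner in iP+A (55.0%, 31.5 to 76.9), beside 49.96% of that list. The reverse view depends on list length: of the 40 summits of iG+A, 16 had a partner in iAtoh1 (40%, 24.9 to 56.7), beside 39.9% of the whole list. With Gfi1 added to both other factors, 15 of 24 Atoh1 summits of iP+A had a partner in iGPA (62.5%, 40.6 to 81.2), beside 57.8%. For Pou4f3, 9 of 27 iPou4f3 summits near members had a partner in iG+P (33.3%, 16.5 to 54.0), where the whole list had 62.0%. With Gfi1 added to iP+A, 11 of 20 had a partner in iGPA (55.0%, 31.5 to 76.9), beside 53.4%. In iP+A, 10 of the 27 iPou4f3 summits had one (37.0%, 19.4 to 57.6), beside 43.7%. Between factors, 7 of 24 Atoh1 summits in iP+A had a Pou4f3 partner (29.2%, 12.6 to 51.1), beside 23.2%, and 5 of 43 did in iGPA (11.6%, 3.89 to 25.1), beside 15.3%. Of the 8 Gfi1 summits, 2 had an Atoh1 partner (25.0%, 3.19 to 65.1), beside 43.4% of the whole list, and 2 a Pou4f3 partner (25.0%, 3.19 to 65.1), beside 23.7%.

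The sequence within 250 bp centred on each summit was searched on both strands for short strings. An E-box core was present at 17 of 20 summits near members in iAtoh1, 25 of 40 for iG+A, 14 of 24 for iP+A and 32 of 43 for iGPA, or 85.0%, 62.5%, 58.3% and 74.4%, beside 59.9%, 63.0%, 63.7% and 72.9% of the whole lists. The Pou4f string ATAATTAAT, with 1 mismatch allowed, was present at 5 of 27 Pou4f3 summits in iPou4f3, 3 of 27 for iG+P, 2 of 20 for iP+A and 3 of 18 for iGPA, or 18.5%, 11.1%, 10.0% and 16.7%, beside 41.9%, 41.9%, 40% and 54.5%. The share at the Pou4f3 summits near members was thus below that of the whole list in all 4 lists. A Gfi1 string, AATCACTGC or AATCACAGC, was at 0 of 8 Gfi1 summits near members, beside 7.01% of that list. The Rbpj string was at 3 of 20, 9 of 40, 2 of 24 and 9 of 43 Atoh1 summits near members in iAtoh1, iG+A, iP+A and iGPA (15.0%, 22.5%, 8.33% and 20.9%), beside 4.75%, 5.29%, 4.94% and 5.26%. At the Pou4f3 summits near members it was at 2 of 27 in iPou4f3, 7 of 27 for iG+P, 3 of 20 for iP+A and 5 of 18 for iGPA (7.41%, 25.9%, 15.0% and 27.8%), beside 4.04%, 3.92%, 3.99% and 4.30%, and at 1 of 8 Gfi1 summits. In a 100 bp search it was at 2, 4, 0 and 5 of the Atoh1 summits, beside 1.90%, 2.12%, 1.97% and 1.92% of the whole lists, and at 0, 4, 0 and 3 of the Pou4f3 summits, beside 1.52%, 1.54%, 1.52% and 1.65%. Several summits share a site between lists, so these counts are not independent. In the 300 bases upstream of the gene start the Rbpj string was found at Hes5 (2 matches), Hes7 (1) and Hey2 (1), and at 6.15% of protein-coding genes. That search took 1 start for each gene. The Hes1 site 801 bp from the gene start, 155 bp from another Hes1 start, held 1 match. A match is a string of letters and not a site of binding.

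Other genes of the Notch pathway and the relatives and corepressors of the family were counted in the same way. Of 31 pathway genes, an Atoh1 summit was present near 25 in iAtoh1, 28 for iG+A, 29 for iP+A and 30 for iGPA. These made 80.6%, 90.3%, 93.5% and 96.8%, beside 46.6%, 58%, 55.4% and 64.4% of all genes. Among protein-coding genes alone the Atoh1 shares were higher, at 53.1%, 65.7%, 62.7% and 72.2%. A Pou4f3 summit was near 28, 30, 23 and 26 (90.3%, 96.8%, 74.2% and 83.9%), beside 65.7%, 70.9%, 53.4% and 57.5%. The protein-coding shares for Pou4f3 were 72.8%, 76.6%, 58.8% and 63.2%. Gfi1 was near 15 (48.4%), beside 20.1% of all genes, 23.2% of protein-coding genes and 3 of the 9 members. A summit in all 9 lists was found for 11 of the 31 (Notch1, Dll1, Jag1, Jag2, Rbpj, Maml1, Maml3, Lfng, Rfng, Ncstn and Psenen). They made 35.5%, beside 9.14% of all genes and 3 of the 9 members. A site in all 4 Atoh1 lists was found for 22 (71.0%), beside 27.2% of all genes and 5 of the 9 members. Notch1, a receptor, had 7, 6, 4 and 9 Atoh1 summits, and Dll1, a ligand, had 2, 3, 2 and 5. Of the 9 relatives and corepressors, 6, 8, 9 and 9 had an Atoh1 summit and 3 had a Gfi1 summit, beside the all-gene shares just given. Tle2, Tle6 and Aes each had 3, 10, 6 and 11 Atoh1 summits, and a summit here could count for more than 1 gene. Tle3, a Groucho corepressor recruited by Hes proteins, was the only one of the 9 relatives and corepressors with a summit in all 9 lists. That share, 11.1%, was close to the 9.14% of all genes.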

How the data were processed

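ChIP-seq peak lists of 9 combinations of line and antibody were analysed, from 17 ChIP and 12 input libraries. Groups were read from the sample titles, and the list named for 3 factors was taken as iGPA by its name. According to the methods of the study, the authors trimmed reads, aligned them to mm9 with Bowtie 2, removed duplicates, poorly mapped and blacklisted reads, and ran MACS 2 on merged ChIP against merged input replicates. The deposited fold enrichment is a ratio to local background, and the deposited −log10 p is the caller's own value. A deposited −log10 q column was not used. The deposited summit lists also carry a signal column of unstated definition, which the authors' files do not explain and which was not used. Read totals were not used here, so depth is unknown.

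Members, lists of genes and rules were chosen with earlier results of these data known. All 9 members were named. The sites described in full were the site of most lists for each member (for ties, the highest fold) and the highest fold in each list, except that 1 site is not reported here. Further sites near starts, those kept in all lists of a factor, those in the Atoh1-Pou4f3 lines, and the printed sequences other than the Hes6 site of 7 lists were chosen after their values were seen, as were the 1 kb rule and the densities. Sequence came from the NCBIM37 (mm9) genome and gene models from GENCODE. The strings searched do not contain each other, and in 300 bases upstream of starts the E-box cores occurred at 26.7%, the Pou4f string at 6.66% and the Gfi1 strings at 0.765% of protein-coding genes. Python 3.11.15, pandas 2.3.3, numpy 2.4.6, scipy 1.17.1 and matplotlib 3.10.9 were used, and window counts and joining were tested on simulated data. Alternatives were distances of 10 and 100 kb, all called peaks, −log10 p of at least 10, equal list lengths, the nearest start, joining at 100 or 1000 bp, and a 100 bp search.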

Additional observations from a re-analysis of the deposited data

Results flagged for a closer look

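The authors called 24 peaks near members that they left out of their summit lists, by a rule that was not stated. Their folds ran from 2.30 to 4.06, and 16 of the 24 lay within 300 bp of a kept summit of another list. At Hes3, a site 2.45 kb from the start was kept for Atoh1 in iAtoh1 and for Pou4f3 in iG+P, and a left-out peak lay there in the Atoh1 lists of iG+A, iP+A and iGPA and in the Pou4f3 list of iP+A. At the second Hes6 site, inside the gene, left-out peaks of Pou4f3 and Gfi1 in iGPA lay beside the kept Atoh1 summits.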

How the results depend on the processing

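No paired analysis was possible because the authors merged replicates before calling peaks, and for the same reason no replicate could be left out. Lists are given in the order Atoh1 in iAtoh1, iG+A, iP+A and iGPA, then Pou4f3 in iPou4f3 and iG+P, then iP+A and iGPA, and last Gfi1. Of 188 repeated values, 119 moved by no more than 1.5 times. Summits near members changed with distance. Within 10 kb they were 17, 25, 16 and 20 for Atoh1, 14, 10, 8 and 6 for Pou4f3 and 5 for Gfi1. Within 100 kb they rose to 32, 61, 42 and 68 for Atoh1 and to 41 and 47 for Pou4f3 in iPou4f3 and iG+P. With −log10 p of at least 10 they were 8, 14, 8, 20, 8, 8, 6, 9 and 3. By nearest start they were 16, 22, 14 and 19 for Atoh1, 6, 7, 3 and 4 for Pou4f3 and 4 for Gfi1. At equal length, iGPA held 24 for Atoh1 and iG+P held 14 for Pou4f3. The number of members with a summit fell to 4 for iAtoh1 under the −log10 p limit, to 5 and 5 for Pou4f3 in iP+A and iGPA within 10 kb, and to 2, 2 and 4 by nearest start in iPou4f3, iP+A and iGPA. Within 1 kb of a start, an alternative chosen after the data were seen, the 9 lists gave 4, 5, 5, 6, 2, 2, 0, 2 and 2 members. Under the −log10 p limit there were 38 sites, 16 of them in 1 list and 4 in all Atoh1 lists, and joining at 100 bp left 58 in 1 list. Shared summits under that limit were 6, 8, 4 and 10 between Atoh1 lists (Gfi1 added, then Pou4f3 added), 5, 5, 4 and 6 between Pou4f3 lists (Gfi1 added, then Atoh1 added), 2 and 2 between factors in iP+A and iGPA, and 1 and 0 for Gfi1 with Atoh1 and Pou4f3. At 1000 bp they were 16 for iPou4f3 with iP+A, 10 between factors in iGPA, and 4 and 5 for Gfi1, and at 100 bp 4 between factors in iP+A and 1 for Gfi1 with Atoh1. A 100 bp search left the Pou4f string at 1 summit each in iG+P and iP+A. Causes were not tested, beyond the fewer summits each stricter rule admits. Read totals were not used here, and no peak in a list does not show absence of binding.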
